A study of Mus musculus with 81 samples.

Results

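Dyrk1a, Rcan1 and 8 other genes of the calcineurin-NFAT axis were followed in 3 populations of excitatory hippocampal neurons: CA1 pyramidal neurons (CA1 PNs), CA3 pyramidal neurons (CA3 PNs) and dentate gyrus granule cells (DGCs). The 8 others are Rcan2, Ppp3ca, Ppp3cb, Ppp3r1, Nfatc1, Nfatc2, Nfatc3 and Nfatc4. The 10 genes were picked by name from the 57010 genes of the count tables, by a rule that uses no measured value but with earlier results of these data known. Neurons were microdissected by laser from sections of male mice at about 6 months of age (MO), at roughly 950 CA1 PNs, 750 CA3 PNs and 1175 DGCs per brain, and each library holds the RNA of 1 population of 1 mouse. Trisomic mice (Ts) are Ts65Dn, which carry an extra small chromosome with the distal part of mouse chromosome 16 and a centromeric piece of chromosome 17. Disomic mice (2N) lack it. Dyrk1a (chr16:94369804-94496380, plus strand) and Rcan1 (chr16:92188840-92267755, minus strand, both on GRCm39) lie in the triplicated part of chromosome 16, and the other members do not lie in a triplicated segment. Dams received chow with 1.1 g per kg choline (normal diet) or 5.0 g per kg (supplemented diet) from gestation to weaning, so diet here means the diet of the dam. On the normal diet the 81 libraries comprised 6 2N and 5 Ts libraries of CA1 PNs, and 6 of each genotype from both CA3 PNs and DGCs. The supplemented diet gave 7 2N and 9 Ts libraries of CA1 PNs, 7 and 7 of CA3 PNs, and 7 and 9 of DGCs. Each mouse contributed up to 3 libraries, 1 per population. The extra chromosome also triplicates genes with no counterpart on the human chromosome that is trisomic in Down syndrome, which limits the model.

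Calcineurin is a phosphatase switched on by calcium and calmodulin. Its catalytic subunit is encoded by Ppp3ca or Ppp3cb in neurons, and its calcium-binding regulatory subunit by Ppp3r1. Active calcineurin removes phosphates from the NFAT transcription factors (Nfatc1 to Nfatc4), which then enter the nucleus. DYRK1A is a kinase that phosphorylates NFAT proteins and thereby favours their export, and RCAN1 and RCAN2 bind calcineurin and restrain it. The gene pair Dyrk1a and Rcan1 has therefore been studied in Down syndrome as a joint brake on NFAT signaling, and calcineurin is one of the most abundant phosphatases of hippocampal neurons.

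Rcan1 itself is a known NFAT target, since one of its promoters holds a cluster of NFAT sites and drives a shorter transcript. The 2 Rcan1 promoter windows are shown because the deposited counts are per gene and do not separate the transcripts that start at either of them. Each window holds the 250 bases before a transcription start annotated by RefSeq on GRCm38.p6, on the minus strand of chromosome 16. The upstream window lies at chr16:92466170-92466419 and the downstream one at chr16:92400079-92400328, with starts 66091 bases apart. Capitals mark the NFAT core GGAAA or its reverse complement TTTCC.
Rcan1, upstream start: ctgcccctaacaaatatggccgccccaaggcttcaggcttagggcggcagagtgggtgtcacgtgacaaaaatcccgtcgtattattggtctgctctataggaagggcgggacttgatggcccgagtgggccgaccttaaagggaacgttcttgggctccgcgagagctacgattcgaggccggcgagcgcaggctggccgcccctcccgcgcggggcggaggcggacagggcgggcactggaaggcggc
Rcan1, downstream start: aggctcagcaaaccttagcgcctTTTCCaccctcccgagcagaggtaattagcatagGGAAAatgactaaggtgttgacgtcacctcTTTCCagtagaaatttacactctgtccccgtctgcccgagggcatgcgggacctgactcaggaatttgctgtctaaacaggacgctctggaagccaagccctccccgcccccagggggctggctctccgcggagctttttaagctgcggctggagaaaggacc
The downstream window held 3 matches, 1 on the strand shown and 2 on the other, at 227, 193 and 163 bases before the start. The upstream window held 0. Among all 32851 RefSeq windows of the same length, 18254 (55.6%) held at least 1 match and 21.4% held 2 or more, so a match is common. Windows of Nfatc2, Nfatc4 and Ppp3cb also held 3 matches each. Dyrk1a had a match in 2 of its 3 windows, Nfatc2 in 2 of 2, Nfatc3 in 1 of 2 and Rcan2 in 1 of 3, and the single window of Ppp3r1 held 0. A match is a string of letters and was not tested as a binding site.

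Total expected counts ran from 358355 to 4744036 per library. Over 71 triplicated genes, the mean log2 CPM separated the Ts libraries from the 2N libraries of the same population, with 1 exception. The CA1 PN library of mouse 17-154, labelled 2N, stood at 5.10, inside the Ts range of 4.92 to 5.15. Mouse 15-145 carries conflicting labels, Ts for its CA3 PNs and 2N for its CA1 PNs and DGCs. The CA3 PN library was taken as 2N from the labels of the other libraries of that mouse. It had a mean of 4.63, the top of the 2N range and below every Ts library on the same diet (4.92 to 4.99). Markers of CA2 neurons were high in 10 of the 27 CA1 PN libraries, and those of CA1 neurons were lowest in 2 of the 10, from mice 16-272 (mean log2 CPM 2.74) and 17-21 (2.92). Among the CA3 PN libraries of Ts mice on the supplemented diet, that of mouse 15-140 stood apart in markers of granule cells, with a summed level of 228 CPM against 112 to 156 CPM in the other 6. Values of the 10 members without these libraries are given where they change a call. Calls of other named genes were not followed without them.

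Ppp3ca was the most abundant member and Ppp3r1 followed it. In TPM, a transcript abundance scaled for gene length that allows genes to be compared within a library, Ppp3ca ranked first of the 10 in 80 of 81 libraries. Its median was 729 TPM, against 474 TPM for Ppp3r1 and 122 TPM for Ppp3cb. Dyrk1a had a median of 44.8 TPM, Rcan1 21.3 TPM and Rcan2 9.35 TPM. The NFAT genes were the scarcest members. Nfatc2 had a median of 5.51 TPM and Nfatc3 3.69 TPM. Nfatc1 never exceeded 9 counts and was at 0 in 28 of 81 libraries. Nfatc4 had at most 3 counts and was at 0 in 73 of 81 libraries, so it could not be tested in any comparison of genotypes. A count of 0 allows up to 3 counts, which here is 0.632 to 8.37 CPM (the count scaled to the size of the library) depending on the library.

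The populations differed in nearly every well-measured member, and the DGCs stood apart from both kinds of pyramidal neuron. Levels are given below in CPM on 1 scale for all libraries, and differences as log2 fold changes (LFC) from edgeR's quasi-likelihood test. Between populations a call is a Benjamini-Hochberg adjusted p under 0.05. In 2N mice on the normal diet, 2 of 8 members tested differed between CA1 PNs and CA3 PNs, where 23.3% of all genes did. Between CA1 PNs and DGCs 7 of 8 differed (34.3% of all genes), and between CA3 PNs and DGCs 7 of 8 (43.7%). In Ts mice on the normal diet the counts were 2 of 9 (25.3% of all genes), 8 of 9 (33.7%) and 7 of 9 (44.5%). The supplemented diet gave 3 of 9 (22.9%), 6 of 9 (31.8%) and 7 of 9 (40.4%) in 2N mice, and 2 of 9 (24.5%), 8 of 9 (39.3%) and 7 of 9 (44.2%) in Ts mice. In dissected neurons, fewer cells with a transcript and less RNA per cell cannot be told apart.

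**Figure D1:**
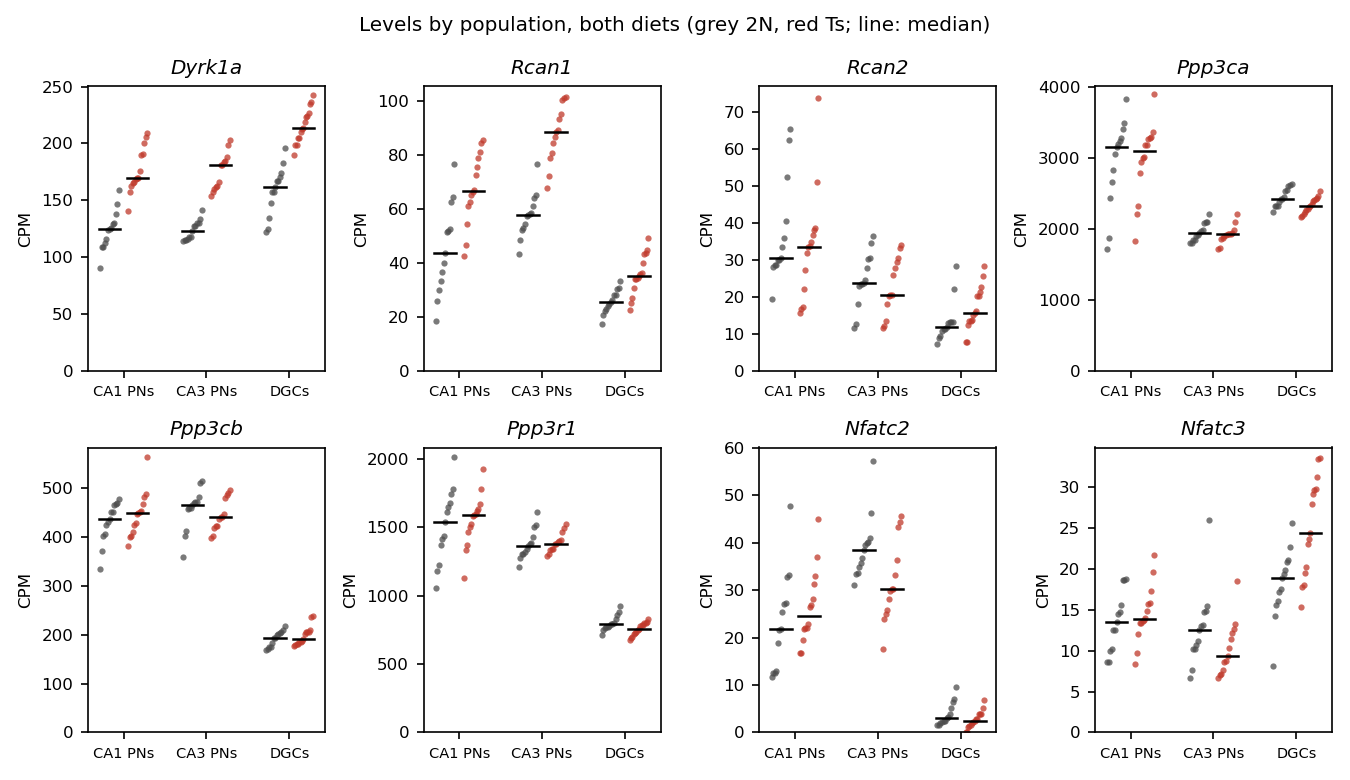
Level of 8 members in CPM (vertical axes, from 0) in every library, by population, with 2N libraries in grey, Ts libraries in red and a line at the median of each. Ppp3cb, Ppp3r1, Nfatc2 and Rcan1 sit lowest in DGCs, Nfatc3 and Dyrk1a highest, and Ppp3ca is highest in most CA1 PN libraries.

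Dyrk1a was higher in DGCs than in either pyramidal population. In 2N mice on the normal diet its median was 126 CPM in CA1 PNs (90.1 to 159), 116 CPM in CA3 PNs (114 to 130) and 162 CPM in DGCs (135 to 196). The LFC of CA1 PNs against DGCs was -0.42 ± 0.12 (SE, adjusted p = 0.0042, edgeR) and that of CA3 PNs against DGCs -0.47 ± 0.12 (adjusted p = 9.0e-04). CA1 PNs and CA3 PNs did not differ beyond their spread (LFC 0.05, 95% interval -0.18 to 0.29), and the sign of this LFC turned without the library of mouse 17-154 (-0.05). The difference from DGCs was called in both genotypes and on both diets, but that of CA1 PNs in Ts mice on the normal diet (LFC -0.23, adjusted p = 0.046, edgeR) was kept under 7 of 14 alternatives. It was lost without the mice 16-490, 17-153, 17-157 or 17-192, at LFCs of -0.20, -0.19, -0.25 and -0.23. In 2N mice the CA1 PN difference was lost without mouse 15-145 on the normal diet (LFC -0.29) and without the mice 14-125 or 15-296 on the supplemented diet (-0.30 and -0.29), and that of CA3 PNs without mouse 14-125 (-0.29).

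Rcan1 followed the opposite order. In the same 2N mice the CA3 PN median was 59.2 CPM (52.3 to 65.0), above the 42.2 CPM of CA1 PNs (18.3 to 76.7) and the 29.3 CPM of DGCs (24.6 to 33.3). Every CA3 PN library of this group lay above every DGC library, with an LFC of 0.99 ± 0.20 (adjusted p = 1.4e-04, edgeR). CA1 PNs were above DGCs by 0.59 ± 0.21 (adjusted p = 0.029) and not separable from CA3 PNs (LFC -0.40, adjusted p = 0.15). The outcome for CA1 PNs depended on single libraries. Without that of mouse 17-154 the LFC was 0.34 against DGCs (adjusted p = 0.19, edgeR) and -0.67 against CA3 PNs (adjusted p = 0.0049), and the difference from DGCs was also lost without the mice 15-147 (LFC 0.56) or 17-172 (LFC 0.61). Rcan2 was highest in CA1 PNs, at a median of 30.1 CPM (28.8 to 65.3), against 25.7 CPM in CA3 PNs (12.6 to 36.5) and 13.3 CPM in DGCs (8.96 to 28.4). Only its difference between CA1 PNs and DGCs passed the test in these mice (LFC 1.12 ± 0.29, adjusted p = 0.0037). The 2 calcineurin inhibitors thus had their lowest medians in the same population as Ppp3cb and Ppp3r1.

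The 2 catalytic subunits had different orders. Ppp3ca was highest in CA1 PNs, at a median of 3258 CPM (1721 to 3842) in 2N mice on the normal diet, against 2483 CPM in DGCs (2332 to 2636) and 1913 CPM in CA3 PNs (1810 to 1993). The LFC of CA1 PNs against CA3 PNs was 0.68 ± 0.11 (adjusted p = 2.0e-05, edgeR) and that of CA3 PNs against DGCs -0.42 ± 0.11 (adjusted p = 0.0026). CA1 PNs and DGCs were neighbours that the test did not separate in these mice (LFC 0.26, 95% interval 0.04 to 0.49, adjusted p = 0.068), with the lowest CA1 PN libraries below every DGC library. Ppp3cb was similar in CA1 PNs, at 451 CPM (372 to 479), and in CA3 PNs, at 465 CPM (403 to 482), and its DGC libraries were all far below, at 202 CPM (193 to 219). The LFC against DGCs was 1.08 ± 0.09 for CA1 PNs (adjusted p = 3.3e-12) and 1.12 ± 0.09 for CA3 PNs (adjusted p = 7.3e-13). The regulatory subunit gene Ppp3r1 followed Ppp3cb, with 1630 CPM in CA1 PNs (1055 to 2014), 1358 CPM in CA3 PNs (1301 to 1502) and 786 CPM in DGCs (746 to 832). Its LFC against DGCs was 0.98 ± 0.10 in CA1 PNs (adjusted p = 2.2e-10) and 0.77 ± 0.10 in CA3 PNs (adjusted p = 3.5e-08). The ratio of Ppp3ca to Ppp3cb, taken per library from TPM, was 9.74 ± 1.38 (SD, n = 28) in DGCs, 5.90 ± 1.35 (n = 27) in CA1 PNs and 4.04 ± 0.38 (n = 26) in CA3 PNs, so the balance of the catalytic subunits was most one-sided in DGCs. Per TPM of both catalytic subunits there was 0.406 ± 0.033 of Ppp3r1 in DGCs, 0.584 ± 0.059 in CA1 PNs and 0.722 ± 0.046 in CA3 PNs. These ratios are descriptions over libraries of both genotypes and diets. The expected count of Ppp3r1 was not a whole number in 40 of 81 libraries, so some of its reads were divided with another gene, and its level is less certain than that of the other members.

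The NFAT genes divided the populations. For Nfatc2 the 2N medians on the normal diet were 38.1 CPM for CA3 PNs (31.0 to 40.2), 20.4 CPM for CA1 PNs (12.5 to 33.2) and 3.12 CPM for DGCs (1.62 to 6.4). The DGC libraries lay below every pyramidal library, by an LFC of 3.31 ± 0.28 against CA3 PNs (adjusted p = 1.8e-12, edgeR) and 2.48 ± 0.31 against CA1 PNs (adjusted p = 3.2e-08). CA1 PNs were also below CA3 PNs (LFC -0.83 ± 0.21, adjusted p = 0.0031). Nfatc3 ran the other way, with 20.5 CPM in DGCs (14.3 to 25.6), 13.5 CPM in CA1 PNs (8.63 to 18.7) and 12.8 CPM in CA3 PNs (10.2 to 14.7). It was lower than in DGCs by an LFC of -0.66 ± 0.23 in CA1 PNs (adjusted p = 0.023) and -0.76 ± 0.22 in CA3 PNs (adjusted p = 0.0039), the first of which was lost without the mice 15-147 (LFC -0.57) or 17-172 (LFC -0.65). Over all libraries the ratio of Nfatc2 to Nfatc3 in TPM was 4.33 ± 2.58 (SD) for CA3 PNs, 2.51 ± 1.28 for CA1 PNs and 0.241 ± 0.208 for DGCs. The 2 measurable NFAT genes therefore changed rank, with Nfatc2 on average the higher of the pair in pyramidal neurons and Nfatc3 in DGCs. Nfatc3 in 2N mice on the supplemented diet was not called against DGCs in either pyramidal population (LFC -0.29, adjusted p = 0.47 in CA1 PNs and LFC -0.43, adjusted p = 0.20 in CA3 PNs). In Ts mice on both diets it was called against both (LFC -0.63 and -1.52 on the normal diet, -0.93 and -1.10 on the supplemented diet). With each mouse left out, the CA1 PN call in Ts mice on the normal diet was kept in 4 of 6 fits.

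For genotype, the question was how an extra copy of Dyrk1a and Rcan1 showed in each population, and whether the genes outside the triplicated segments moved as well. A gene is called here at an unadjusted p under 0.05, so that the 95% interval of its LFC leaves out 0, and the adjusted p is given beside it. This lenient criterion follows that of the original work. Of the members tested on the normal diet, 2 of 8 were called in CA1 PNs (3.77% of all genes were), 3 of 9 in CA3 PNs (9.20%) and 3 of 8 among DGCs (8.50%). At an adjusted p under 0.05 the members called were 0 in CA1 PNs (0.00814% of all genes, 1 gene), 2 in CA3 PNs (0.662%) and 1 in DGCs (0.588%). Under supplementation 2 of 8 were called in CA1 PNs (3.60% of all genes), 2 of 9 in CA3 PNs (4.99%) and 5 of 9 among DGCs (7.60%). At an adjusted p under 0.05 these were 0 in CA1 PNs (0.0490% of all genes), 2 in CA3 PNs (0.249%) and 1 in DGCs (0.445%). Dyrk1a and Rcan1 account for 12 of these 17 calls, and the triplication of the 2 genes is part of why they were chosen. The median LFC over all genes was within 0.02 of 0 in every genotype comparison.

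Dyrk1a, the kinase, rose in Ts mice in all 3 populations on both diets. In CA1 PNs on the normal diet the 5 Ts libraries stood at 166, 175, 190, 190 and 206 CPM, against a median of 126 CPM in 2N mice (90.1 to 159). In CA3 PNs the medians were 161 CPM in Ts (154 to 199) and 116 CPM in 2N (114 to 130), and in DGCs 213 CPM in Ts (199 to 236) and 162 CPM in 2N (135 to 196). The Ts and 2N libraries did not overlap in any of these populations, the highest 2N library in CA1 PNs being that of mouse 17-154. The LFC was 0.56 ± 0.14 (SE, 95% interval 0.27 to 0.84, adjusted p = 0.9996, edgeR) in CA1 PNs, 0.50 ± 0.09 (adjusted p = 3.4e-04) in CA3 PNs and 0.38 ± 0.09 (adjusted p = 0.010) in DGCs. Without the library of mouse 17-154 the LFC in CA1 PNs was 0.65 ± 0.13 (adjusted p = 0.22). The Ts medians on the supplemented diet were 168 CPM in CA1 PNs (141 to 209), 181 CPM in CA3 PNs (162 to 203) and 224 CPM in DGCs (190 to 243). The 2N medians were 125 CPM (109 to 147), 127 CPM (116 to 142) and 161 CPM (122 to 183). The libraries again did not overlap in CA3 PNs and DGCs, and in CA1 PNs 8 of 9 Ts libraries lay above every 2N library. The LFC was 0.46 ± 0.10 (adjusted p = 0.11, edgeR) in CA1 PNs, 0.51 ± 0.08 (adjusted p = 1.9e-04) in CA3 PNs and 0.47 ± 0.08 (adjusted p = 2.0e-04) in DGCs. How often the Ts and 2N libraries of other genes did not overlap in the same groups was not counted.

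**Figure D2:**
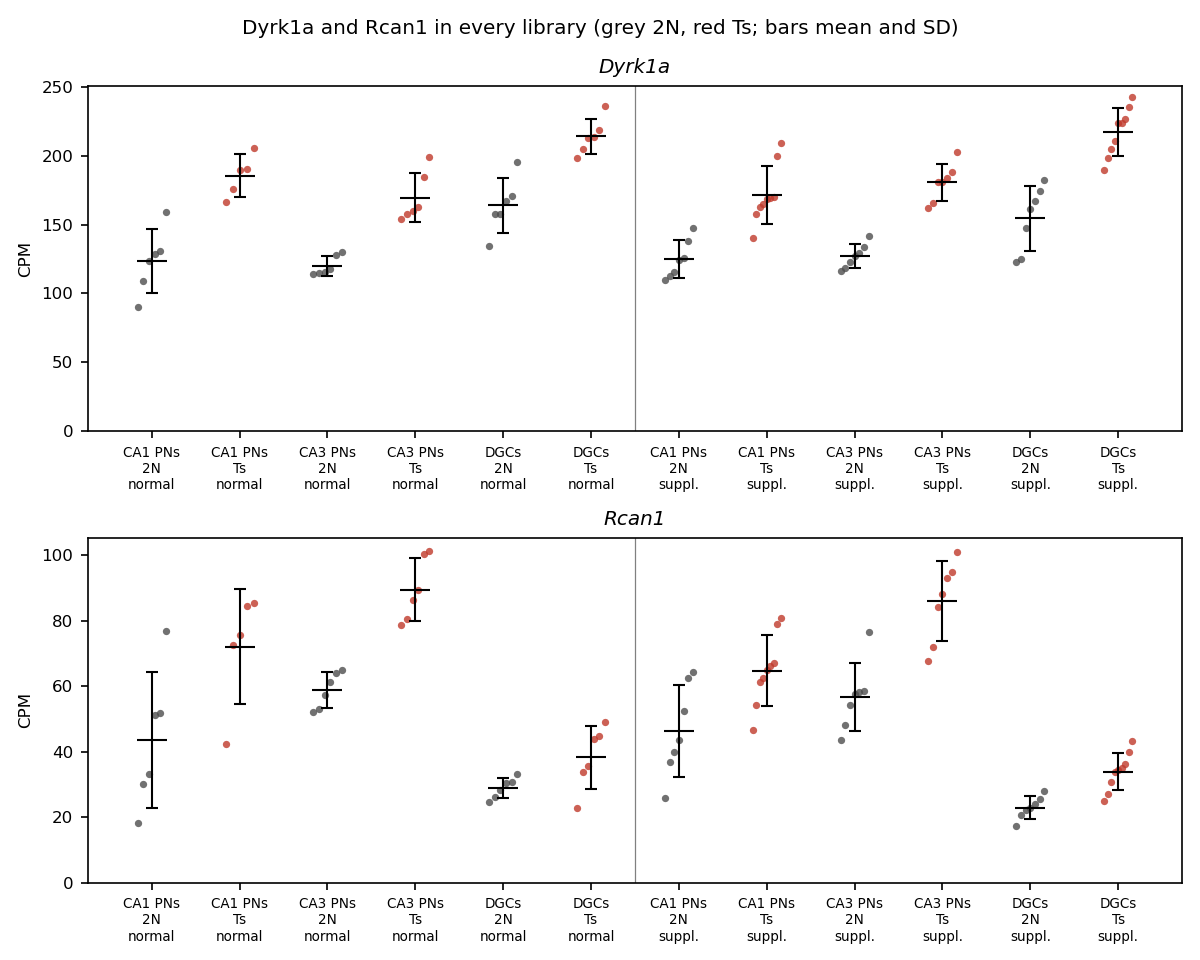
Dyrk1a and Rcan1 in CPM (vertical axes, from 0) in each of the 81 libraries, grouped by population, genotype and diet of the dam, with bars at the mean and 1 SD. Ts and 2N libraries of Dyrk1a do not overlap in 5 of the 6 pairs of groups, and those of Rcan1 do not overlap in 1, the CA3 PNs on the normal diet. How often this holds for other genes was not counted.

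Rcan1, the calcineurin inhibitor, was called higher in Ts mice in the same 6 comparisons, with more spread between mice. In CA3 PNs on the normal diet the Ts median was 87.8 CPM (78.7 to 101) and the 2N median 59.2 CPM (52.3 to 65.0), without overlap, and the LFC was 0.59 ± 0.11 (SE, adjusted p = 7.5e-04, edgeR). In CA3 PNs on the supplemented diet the medians were 88.2 CPM (67.8 to 101) and 57.6 CPM (43.4 to 76.6), and the LFC was 0.63 ± 0.12 (adjusted p = 0.0031). Taking the library of mouse 15-145 under its own Ts label left both genes called in CA3 PNs. In DGCs the level was lower and the difference less certain. There the Ts median was 39.7 CPM (22.7 to 49.0) and the 2N median 29.3 CPM (24.6 to 33.3) on the normal diet, with 5 of 6 Ts libraries above every 2N library and 1 below every 2N library. The LFC was 0.40 ± 0.17 (95% interval 0.07 to 0.74, adjusted p = 0.47, edgeR), and without mouse 16-490 it was 0.31 and no longer called. The DGC medians on the supplemented diet were 34.4 CPM (25.0 to 43.1) in Ts and 22.9 CPM (17.2 to 28.1) in 2N, with an LFC of 0.53 ± 0.17 (adjusted p = 0.17).

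In CA1 PNs Rcan1 was the most variable. The 5 Ts libraries on the normal diet stood at 42.5, 72.6, 75.6, 84.4 and 85.3 CPM, and the 2N libraries ran from 18.3 to 76.7 CPM around a median of 42.2 CPM. The highest 2N value came from mouse 17-154 and the lowest from mouse 17-21. The LFC was 0.67 ± 0.29 (95% interval 0.03 to 1.30, adjusted p = 0.9996, edgeR). It was 0.93 ± 0.25 without the library of mouse 17-154 (adjusted p = 0.61, edgeR) and 0.51 ± 0.24 without that of mouse 17-21 (adjusted p = 0.92, edgeR), and it was called in both cases. The call was lost when any of the mice 15-145, 16-490, 17-153, 17-157, 17-173 or 17-56 was left out, with LFCs of 0.60, 0.67, 0.62, 0.67, 0.60 and 0.61. The medians on the supplemented diet were 64.9 CPM in Ts (46.7 to 80.9) and 43.4 CPM in 2N (25.8 to 64.4), with an LFC of 0.48 ± 0.16 (95% interval 0.15 to 0.81, adjusted p = 0.94, edgeR).

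Set against the gene dose, the LFC of the 2 triplicated members lay between 0.38 and 0.67, which is 1.31 to 1.59-fold. An increase of 1.5-fold is 0.58 on the log2 scale, and the 95% interval of the LFC held that value in 11 of 12 comparisons. The exception was Dyrk1a in DGCs on the normal diet, at 0.21 to 0.56. The median LFC of the other triplicated genes of chromosome 16 that could be tested was 0.39, 0.56 and 0.57 in CA1 PNs, CA3 PNs and DGCs on the normal diet. On the supplemented diet it was 0.46, 0.53 and 0.60. The CA1 PN median on the normal diet was 0.54 without the library of mouse 17-154, which stood at the Ts level in these genes. It was 0.39 without that of mouse 17-21 and 0.51 without all CA1 PN libraries rich in CA2 markers. The LFC of Dyrk1a and Rcan1 did not pass a test of a difference between any 2 populations on either diet. For Dyrk1a the widest such difference was 0.18 (CA1 PNs minus DGCs, normal diet, 95% interval -0.12 to 0.47), and for Rcan1 it was 0.26 (same pair, -0.34 to 0.85).

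**Figure D3:**
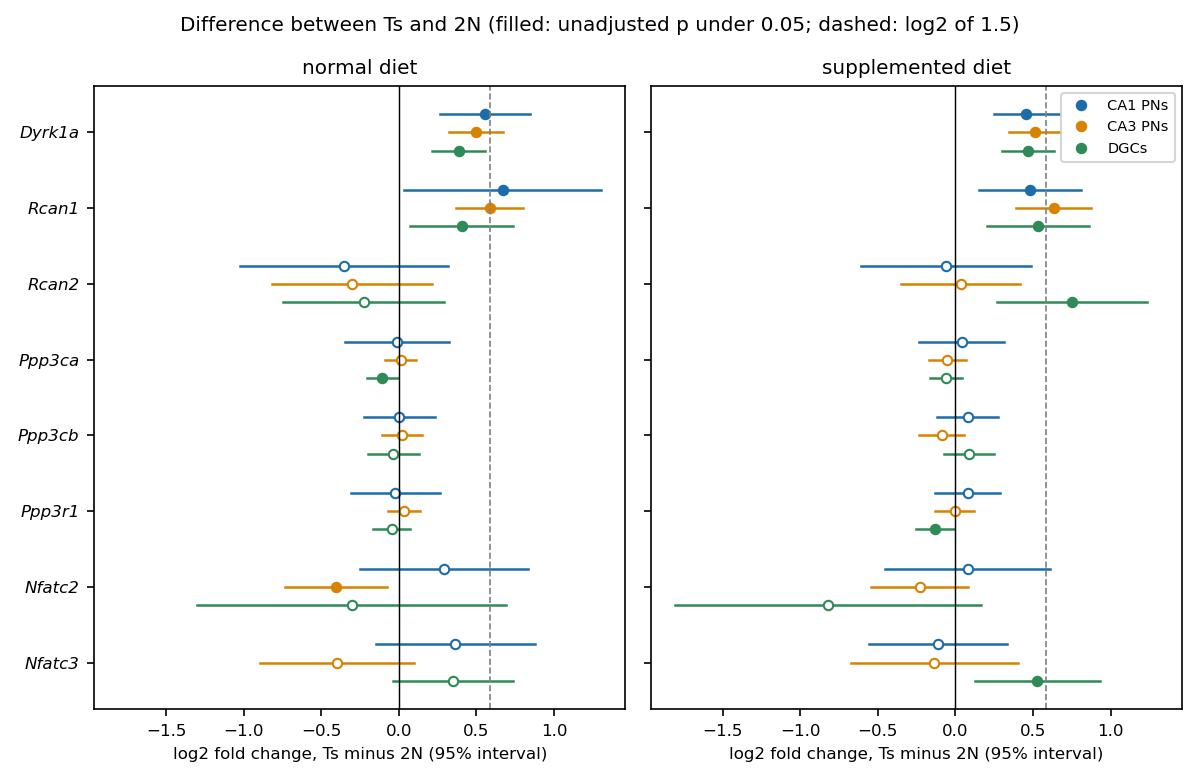
LFC of Ts minus 2N with its 95% interval (horizontal axis, log2 scale) for 8 members in CA1 PNs (blue), CA3 PNs (orange) and DGCs (green), on each diet. Filled points have an unadjusted p under 0.05, and the dashed line marks the log2 of 1.5. Dyrk1a and Rcan1 are to the right of 0 in every population, while the 3 calcineurin subunits lie between -0.13 and 0.09.

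Rcan2, the relative of Rcan1 outside the triplicated segments, was called in 1 of 6 comparisons, the DGCs on the supplemented diet. There the Ts median was 20.2 CPM (7.72 to 28.3) and the 2N median 11.2 CPM (7.35 to 13.1). Of the 9 Ts libraries, 8 lay above every 2N library. The LFC was 0.75 ± 0.24 (95% interval 0.27 to 1.24, adjusted p = 0.20, edgeR), and the call was kept under all 22 alternatives tried, mice left out one by one included. On the normal diet the medians in DGCs were 14.6 CPM in Ts (7.89 to 20.3) and 13.3 CPM in 2N (8.96 to 28.4), and the LFC was -0.23 ± 0.26 (95% interval -0.75 to 0.29). In CA1 PNs and CA3 PNs the LFC of Rcan2 was between -0.35 and 0.03 and the ranges overlapped.

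The calcineurin subunits were nearly level between genotypes. Over the 3 genes, 3 populations and 2 diets the LFC ran from -0.13 to 0.09, and 2 of 18 comparisons were called, both in DGCs. Ppp3ca had a median of 2305 CPM in Ts DGCs (2237 to 2538) and 2483 CPM in 2N DGCs (2332 to 2636) on the normal diet. Of 6 Ts libraries, 4 lay below every 2N library, and Ppp3ca fell by 0.11 on the log2 scale (LFC -0.11 ± 0.05, 95% interval -0.20 to -0.01, adjusted p = 0.55, edgeR). Ppp3r1 had a median of 748 CPM in Ts DGCs (674 to 798) and 794 CPM in 2N DGCs (711 to 921) on the supplemented diet, and all 9 Ts libraries lay below the 2N mean. Its LFC was -0.13 ± 0.06 (95% interval -0.25 to -0.01, adjusted p = 0.59, edgeR). The call of Ppp3ca was kept under 10 of 18 alternatives and lost without any of the mice 16-357, 16-490, 17-154, 17-172, 17-173 or 17-56. That of Ppp3r1 was kept under 14 of 22 and lost without any of the mice 14-125, 14-90, 15-140, 15-198, 15-199 or 16-273, or without the 2N mouse that had 8.19 CPM of Nfatc3 in its DGCs. The intervals show how little room there was for a change in CA3 PNs on the normal diet, at -0.09 to 0.11 for Ppp3ca, -0.11 to 0.15 for Ppp3cb and -0.07 to 0.13 for Ppp3r1. In CA1 PNs they were wider, at -0.35 to 0.32, -0.22 to 0.23 and -0.31 to 0.26.

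Among the NFAT genes, Nfatc2 fell in CA3 PNs on the normal diet and Nfatc3 rose in DGCs on the supplemented diet. Nfatc2 had a median of 27.4 CPM in Ts CA3 PNs (17.6 to 44.5) and 38.1 CPM in 2N (31.0 to 40.2). Of 6 Ts libraries, 5 lay below every 2N library and 1 lay above all of them. The LFC was -0.41 ± 0.16 (95% interval -0.74 to -0.08, adjusted p = 0.38, edgeR). It was -0.28 with the library of mouse 15-145 under its own Ts label, -0.33 without mouse 17-157 and -0.30 without mouse 17-192, none of which was called. Markers of inhibitory neurons and astrocytes moved with it. Of 6 inhibitory markers, 4 (Gad1, Gad2, Slc32a1 and Sst) were called lower in the same Ts libraries. Pvalb (LFC -0.47) and Vip (LFC -0.69) were not called. The summed level of all 6 was 124 to 168 CPM in Ts and 137 to 356 CPM in 2N. Gad1, Gad2, Slc32a1, Sst and Pvalb were detected in every one of these libraries. Of 5 astrocyte markers, 3 (Gfap, Aqp4 and Gja1) were called lower, and the summed level of all 5 was 132 to 195 CPM in Ts and 151 to 249 CPM in 2N. The part of these markers in the difference of Nfatc2 was not tested. Nfatc2 in CA3 PNs on the supplemented diet had medians of 33.1 CPM in Ts (25.9 to 45.7) and 38.4 CPM in 2N (33.4 to 57.2), with an LFC of -0.23 (95% interval -0.54 to 0.08).

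Nfatc3 had a median of 24.5 CPM in Ts DGCs (15.4 to 33.4) and 17.1 CPM in 2N DGCs (8.19 to 20.8) on the supplemented diet. Of 9 Ts libraries, 5 lay above every 2N library. The LFC was 0.53 ± 0.20 (95% interval 0.12 to 0.93, adjusted p = 0.39, edgeR), and the call was kept under all 22 alternatives. On the normal diet the medians were 26.7 CPM (18.1 to 33.5) and 20.5 CPM (14.3 to 25.6), with an LFC of 0.35 (95% interval -0.04 to 0.74). Inhibitory markers moved with Rcan2 and Nfatc3 in the DGCs on the supplemented diet. Of 4 such markers tested, 3 (Gad1, Gad2 and Slc32a1) were called higher in Ts, and the summed level of the whole list was 219 to 319 CPM in Ts against 167 to 249 CPM in 2N. Sst was at 0 in 6 of 7 2N and 4 of 9 Ts libraries and Vip in 5 of 7 and 6 of 9. On the normal diet 0 of 4 such markers were called in DGCs. Of 5 astrocyte markers, 1 (Slc1a3) was called higher in these Ts DGCs, and the summed level of all 5 was 130 to 221 CPM in Ts and 120 to 176 CPM in 2N. The normal diet gave 1 of 5 (Aldh1l1), also higher. The part of these cells in the 2 results was not tested. Nfatc1 could be tested in CA3 PNs on both diets and in DGCs on the supplemented diet, where its LFCs were -0.62, 1.14 and 1.29 with intervals that included 0. Its counts were at most 9, and Nfatc4 was below the filter throughout.

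**Figure D4:**
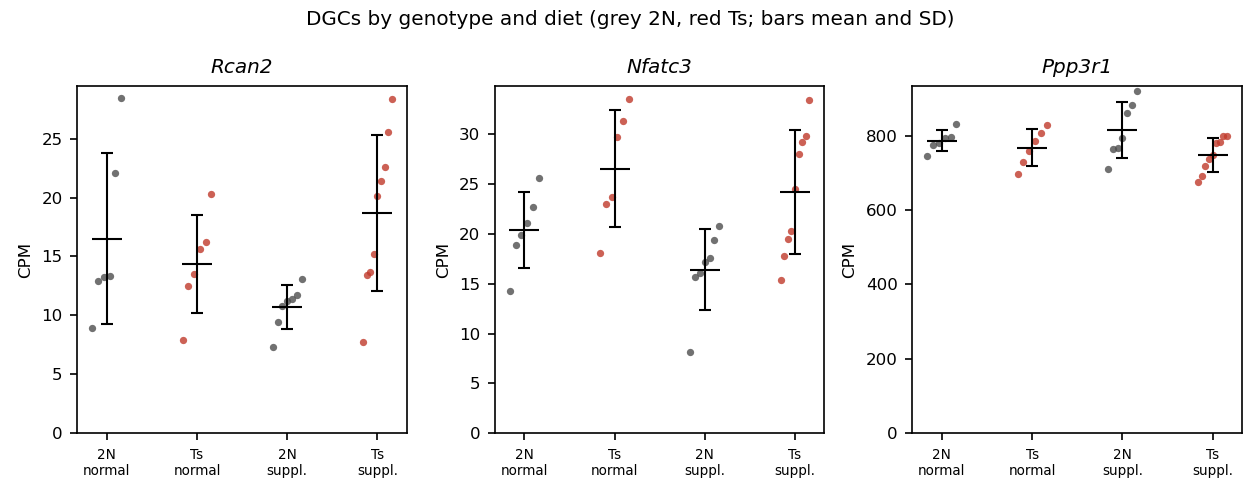
Rcan2, Nfatc3 and Ppp3r1 in CPM (vertical axes, from 0) in each DGC library by genotype and diet of the dam, with bars at the mean and 1 SD. On the supplemented diet 8 of 9 Ts libraries of Rcan2 and 5 of 9 of Nfatc3 lie above every 2N library, while the Ppp3r1 libraries overlap.

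The diet of the dam was compared within each genotype, with all 4 groups of a population in 1 fit. In 2N mice, 0 of 9 members were called in CA1 PNs (3.27% of all genes were), 0 of 9 in CA3 PNs (4.90%) and 1 of 9 among DGCs (5.82%). In Ts mice, 0 of 9 were called in each of CA1 PNs (3.05%), CA3 PNs (4.19%) and DGCs (3.81%) with edgeR at an unadjusted p under 0.05. DESeq2 also called 0, while limma-voom called 1. The single call was Rcan2 in 2N DGCs, at a median of 11.2 CPM (7.35 to 13.1) on the supplemented and 13.3 CPM (8.96 to 28.4) on the normal diet. Here 2 normal-diet libraries, at 22.0 and 28.4 CPM, stood above the rest. The LFC was -0.58 ± 0.27 (95% interval -1.12 to -0.04, adjusted p = 0.85, edgeR). It was -0.32 without mouse 17-172 and -0.48 without mouse 17-21, and not called in either case. The call was also lost without the mice 15-334 or 16-273 (LFC -0.54 and -0.53). In Ts DGCs the LFC of Rcan2 was 0.40 (95% interval -0.06 to 0.85). Dyrk1a and Rcan1 had diet LFCs between -0.31 and 0.11 in the 3 populations and both genotypes.

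The interaction of genotype and diet, which asks if the genotype LFC differed between diets, was called for 0 of 9 members in CA1 PNs (3.22% of all genes), 0 of 9 in CA3 PNs (4.87%) and 1 of 9 among DGCs (3.97%). That member was again Rcan2, with a difference in LFC of 0.98 ± 0.36 (95% interval 0.28 to 1.69, adjusted p = 0.9997, edgeR), called under all 33 alternatives. For Dyrk1a the interaction was -0.13 (95% interval -0.46 to 0.20) in CA1 PNs, 0.02 (-0.21 to 0.26) in CA3 PNs and 0.08 (-0.16 to 0.32) in DGCs. For Rcan1 it was -0.22 (-0.88 to 0.43), 0.06 (-0.26 to 0.38) and 0.13 (-0.34 to 0.60). These intervals do not show that the genotype difference was the same on both diets.

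The genotype LFC itself was compared between populations in 1 fit per diet. In mice on the normal diet, 2 of 9 members were called between CA1 PNs and CA3 PNs (4.22% of all genes), 0 of 9 between CA1 PNs and DGCs (5.51%) and 2 of 9 between CA3 PNs and DGCs (5.18%). On the supplemented diet the counts were 0 of 9 (4.27%), 3 of 9 (4.95%) and 1 of 9 (4.42%). All of these calls were among Nfatc1, Nfatc2, Nfatc3, Rcan2 and Ppp3r1. Nfatc3 and the scarce Nfatc1 were called on both diets. For Nfatc3 the genotype LFC in CA3 PNs minus that in DGCs was -0.77 ± 0.30 (adjusted p = 0.91, edgeR) on the normal and -0.66 ± 0.33 (adjusted p = 0.9999, edgeR) on the supplemented diet, where the mouse as a block gave -0.57 and ended the call. That second difference was kept under 9 of 24 alternatives, was -0.57 and not called without the CA3 library of mouse 15-140, and was -0.41 without the 2N mouse that had 8.19 CPM of Nfatc3 in its DGCs. The Nfatc3 LFC in CA1 PNs also exceeded that in CA3 PNs on the normal diet, by 0.79 ± 0.33 (95% interval 0.13 to 1.44), as did that of Nfatc2, by 0.71 ± 0.31 (0.09 to 1.34). The Nfatc2 difference was kept under 17 of 23 alternatives and lost with the CA3 library of mouse 15-145 under its Ts label, or without any of the mice 15-145, 15-147, 16-357, 17-172 or 17-192, with 0.56 without mouse 16-357. Without mouse 17-157 the Nfatc3 differences were 0.63 and -0.64 and neither was called. For Rcan2 the LFC in CA1 PNs was below that in DGCs on the supplemented diet (difference -0.81 ± 0.37, 95% interval -1.55 to -0.07), kept under 19 of 24 alternatives.

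The CA1 PN libraries were then divided by their CA2 markers (Amigo2, Rgs14, Map3k15, Cacng5 and Ccdc3), because 10 of the 27 had a mean log2 CPM over these 5 genes of 5.59 to 7.86 and the other 17 one of 1.92 to 3.24. The limit of 5 was set after seeing the data. Ppp3ca separated the libraries completely, at 1721 to 2946 CPM in the 10 and 3004 to 3909 CPM in the 17. Ppp3r1 was at 1055 to 1618 CPM against 1414 to 2014 CPM. Rcan2 went the other way, at a median of 45.8 CPM (33.5 to 73.7) in the 10 and 28.8 CPM (15.6 to 38.2) in the 17. Nfatc2 had medians of 32.1 CPM (19.5 to 47.8) and 22.0 CPM (11.7 to 32.8), and Ppp3cb 469 CPM (429 to 564) and 425 CPM (334 to 468). Rcan1 was at a median of 49.6 CPM (18.3 to 76.7) in the 10 and 64.4 CPM (30.02 to 85.3) in the 17. Dyrk1a, at 158 CPM (113 to 200) and 141 CPM (90.1 to 209), covered similar ranges in both. These are descriptions of a split made from the data, and no test was run on it.

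**Figure D5:**
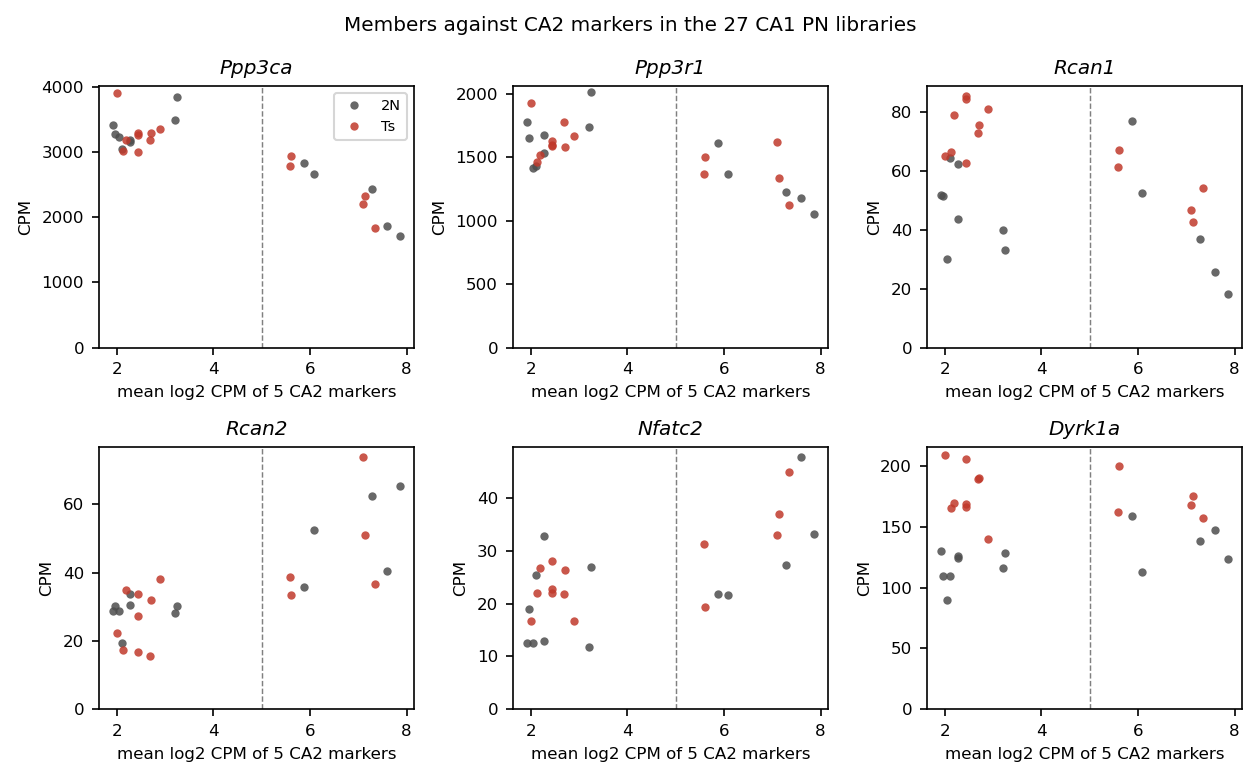
Level of 6 members in CPM (vertical axes, from 0) against the mean log2 CPM of 5 CA2 markers (horizontal axis) in the 27 CA1 PN libraries, 2N in grey and Ts in red, with a dashed line at the limit of 5. The 10 libraries to the right of the line hold the 10 lowest values of Ppp3ca, and their Rcan2 values run from 33.5 to 73.7 CPM.

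These libraries fell in each group, as 2 of 6 2N and 1 of 5 Ts on the normal diet and 3 of 7 and 4 of 9 on the supplemented diet. Without them the Rcan1 LFC in CA1 PNs on the normal diet was 0.90 ± 0.18 (adjusted p = 0.0095, edgeR) and that of Dyrk1a 0.68 ± 0.13 (adjusted p = 0.0044). Other genes gained as well. An adjusted p under 0.05 was reached by 40 of 11718 genes in this fit, against 1 of 12286 with all libraries. Among the other triplicated genes it was 16 of 57 against 0 of 61. The libraries of mice 17-154 and 17-21 are both among the 10. With the CA2 mean as a covariate and all libraries kept, the Rcan1 LFC was 0.59 ± 0.30 and was no longer called, while Dyrk1a stood at 0.57 ± 0.12 (adjusted p = 0.039). In that fit 17 of 12286 genes and 6 of 61 other triplicated genes had an adjusted p under 0.05. Leaving out the libraries rich in CA2 markers on the supplemented diet gave a Dyrk1a LFC of 0.51 ± 0.12 (adjusted p = 0.042, edgeR) and a Rcan1 LFC of 0.43 ± 0.16 (adjusted p = 0.50), both called. There 23 of 11456 genes had an adjusted p under 0.05, against 7 of 14300 with all libraries. Among the other triplicated genes it was 12 of 57 against 6 of 70. The LFC of the 3 calcineurin subunits between genotypes in CA1 PNs stayed between -0.10 and 0.04 without these libraries on either diet. Between populations in 2N mice, Ppp3ca in CA1 PNs was called against DGCs without them (LFC 0.45 on the normal and 0.38 on the supplemented diet). Rcan2 in CA1 PNs against CA3 PNs, called at 0.65 in 2N mice on the supplemented diet, was no longer called (LFC 0.21). Between CA1 PNs and CA3 PNs in 2N mice on the normal diet, 2 more members were called without these libraries. They were Ppp3r1 (LFC 0.32, adjusted p = 3.2e-04, edgeR) and Rcan1 (LFC -0.51, adjusted p = 0.014). The share of all genes called in the fits between populations without these libraries was not taken, so the gain has no reference. In Ts mice Ppp3r1 was gained on both diets (LFC 0.23 on each, adjusted p = 0.0019 and 0.0023) and Nfatc2 on the supplemented diet (LFC -0.60, adjusted p = 0.018). Against DGCs, the calls of Nfatc3 in 2N mice (LFC -0.68, adjusted p = 0.0501) and Dyrk1a in Ts mice (LFC -0.21, adjusted p = 0.061) on the normal diet were lost.

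Around the 10 members, 71 other genes of the axis were taken from 7 lists: other calcineurin subunits, anchors and inhibitors, other DYRK kinases and the DYRK1A partner Dcaf7, NFAT kinases and nuclear partners, calcium entry and sensing, other calcineurin substrates, DYRK1A substrates, and genes described as NFAT targets. On the normal diet the number called was 1 of 63 for CA1 PNs, where 3.77% of all genes were called. It was 5 of 63 for CA3 PNs (9.20%) and 6 of 62 for DGCs (8.50%). On the supplemented diet the counts were 4 of 63 (3.60%), 4 of 62 (4.99%) and 6 of 63 (7.60%). The shares of the listed genes were 1.59%, 7.94% and 9.68% on the normal diet and 6.35%, 6.45% and 9.52% on the supplemented diet. Of the 71 genes, 3 had an adjusted p under 0.05, all in DGCs. These were 1 on the normal diet (0.588% of all genes) and 2 on the supplemented diet (0.445%). Orai2, a calcium channel subunit of store-operated entry, fell by 0.50 on the log2 scale on the normal diet (adjusted p = 0.0028, edgeR). Dyrk1b, the closest relative of Dyrk1a, fell by 0.70 on the supplemented diet (adjusted p = 0.010), and Mef2c, a transcription factor that works with NFAT, rose by 0.28 (adjusted p = 0.039). On the supplemented diet Orai2 was also called lower in DGCs (LFC -0.19, adjusted p = 0.52, edgeR). Mef2c was also called higher in DGCs on the normal diet (LFC 0.22, adjusted p = 0.27, edgeR). Dyrk1b was also called lower in CA3 PNs on the normal diet (LFC -0.59, adjusted p = 0.31, edgeR) and in CA1 PNs on the supplemented diet (LFC -0.41, adjusted p = 0.99998). Homer2, a scaffold that competes with calcineurin for NFAT, was called lower in Ts CA3 PNs on both diets (LFC -0.42 and -0.74, adjusted p = 0.45 and 0.15, edgeR). In Ts DGCs on the normal diet it was called higher (LFC 0.34, adjusted p = 0.52). Of the 5 genes described as NFAT targets that could be tested, 0 were called on the normal diet in any population. On the supplemented diet Bdnf was called higher in CA1 PNs (LFC 0.36 ± 0.16, adjusted p = 0.99998, edgeR). Trpc6 was called higher in CA3 PNs on that diet (LFC 1.24 ± 0.45, adjusted p = 0.66, edgeR). Its level there was 0.79 to 13.3 CPM in Ts and 0 to 5.48 CPM in 2N libraries. Trpc6 is itself among the 5 granule cell markers used here. Their mean log2 CPM in these CA3 PN libraries had a median of 2.97 in Ts (2.67 to 5.14) and 2.63 in 2N (2.41 to 3.12). These Ts libraries include the library that stood apart in granule cell markers, and Trpc6 was not followed without it. The part of granule cells in the Trpc6 result was not tested.

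Over the means of the 12 groups, the Pearson correlation with Dyrk1a was highest for Scaf8 (0.988), Cryzl1 (0.969), Brwd1 (0.966), Itga7 (0.934) and Usp16 (0.920), of 14932 genes compared. With Rcan1 it was highest for Synj1 (0.976), Atp5po (0.968), A030001D20Rik (0.966), Tab3 (0.966) and Ublcp1 (0.960). Cryzl1, Brwd1, Usp16, Synj1 and Atp5po are triplicated genes of chromosome 16, and Scaf8 lies at the centromeric end of chromosome 17, from which the extra chromosome also carries a piece. Dyrk1a and Rcan1 were not alike, with a correlation of -0.003 over the same 12 means, since the first was highest in DGCs and the second in CA3 PNs. The other members most like Rcan1 were Ppp3cb (0.829), Nfatc2 (0.816) and Ppp3r1 (0.758), and the one most like Dyrk1a was Nfatc3 (0.562). The groups share mice and these correlations are descriptions.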

How the data were processed

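Laser-captured CA1 PNs, CA3 PNs and DGCs of male Ts65Dn and 2N mice were profiled by RNA-seq in 81 libraries. Per the labels and the study's methods, the authors trimmed reads with Trimmomatic 0.39, aligned them with STAR and counted genes with RSEM, and the submitters' processing notes also name FastQC 0.11.9 and Picard 2.26.2. The methods give the build GRCm39, while the notes name both GRCm39 and mm10. In the deposited tables, 1 per population, each value is an expected count of a gene without normalization, and it was rounded to a whole number here. Deposited TPM values were used only to compare genes within a library.

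Genes had to exceed 0.1 CPM in 10 or more libraries of a fit, and were scaled by TMM and tested with edgeR 4.0.16 (quasi-likelihood, two-sided, R 4.3.3), which was checked on simulated counts. Genotype was tested within each population and diet, diet and its interaction with genotype within each population, and populations and differences of the genotype LFC within each diet. Calls used an unadjusted p under 0.05, a criterion taken from the original work, with the Benjamini-Hochberg adjusted p beside it, and an adjusted p under 0.05 between populations. Within 1 population the p-values measure the spread between mice. In fits over all 3 populations the libraries of 1 mouse entered as separate units, and the mouse was a block only in an alternative. Alternatives were library totals, DESeq2 1.42.0, limma-voom (limma 3.58.1), 2 other filters, the mouse as a block, both diets together, each mouse left out, and single libraries left out or relabelled. The CA2 split and covariate and the omission of the CA3 library of mouse 15-140, which was high in granule cell markers, were chosen after seeing the data.

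The members and gene lists were chosen with earlier results of these data known. The counts of calls cover every member that passed the filter of a fit, but LFCs are not printed for each member in each comparison. Only part of the called list genes were described. Those called but not described are Fkbp8, Fkbp1a, Akap5, Dcaf7, Mef2a, Ryr2, Orai3, Crtc2, Ppp1r1a, Srsf6, Srsf7 and Septin4. The 5 genes most like Dyrk1a and Rcan1 were named. Promoter windows are from RefSeq, with 15 windows for 8 members. Total counts ran from 358355 to 4744036 per library, which sets how low a gene can be read, and limits from counts cover counting error only. Libraries of 1 mouse were related by origin, and their deviations from group means correlated with a median r of 0.057 over 78 pairs, against -0.012 over 480 pairs of different mice in 1 group (14932 genes).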

Additional observations from a re-analysis of the deposited data

Results flagged for a closer look

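In 7 of 94 groups of 4 to 10 libraries, 1 library stood apart from the rest of its group by Dixon's criterion, which chance meets in about 1 in 20 groups. Rcan2 in 2N CA1 PNs on the normal diet was 65.3 CPM in mouse 17-21 and 28.8 to 35.9 CPM in the other 5. In Ts CA1 PNs on the supplemented diet it was 73.7 CPM in mouse 15-199 and 17.3 to 38.8 CPM in the others. Ppp3ca in Ts CA1 PNs on the normal diet was 2321 CPM in mouse 16-357 and 3185 to 3300 CPM in the others. These 3 libraries are among the 10 rich in CA2 markers, with marker means of 7.86, 7.10 and 7.14, and the part of those markers was not tested. Ppp3ca in Ts DGCs on the normal diet was 2538 CPM in mouse 17-153 and 2237 to 2347 CPM in the others. Ppp3cb was 359 CPM in the CA3 PNs of 1 2N mouse on the supplemented diet (others 458 to 515) and 238 CPM in the DGCs of mouse 15-36 (Ts, supplemented diet; others 178 to 206). Nfatc3 in 2N DGCs on the supplemented diet was 8.19 CPM in that same 2N mouse and 15.7 to 20.8 CPM in the others.

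The edgeR test of the difference in genotype LFC between populations passed an unadjusted p under 0.05 in 8 cases, with adjusted p-values of at least 0.76. On the normal diet, CA1 PNs minus CA3 PNs gave 0.71 for Nfatc2 and 0.79 for Nfatc3. CA3 PNs minus DGCs gave -0.77 for Nfatc3 and -3.52 for Nfatc1, a gene with at most 9 counts in any library. With supplementation, CA1 PNs minus DGCs gave -0.81 for Rcan2, 0.22 for Ppp3r1 and -2.18 for Nfatc1, and CA3 PNs minus DGCs gave -0.66 for Nfatc3. With each mouse left out, the Ppp3r1 call was kept in only 2 of 16 fits, and the Nfatc1 call on this diet in 9 of 16. The interaction of genotype and diet in DGCs gave 0.98 for Rcan2 (adjusted p = 0.9997, edgeR).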

How the results depend on the processing

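No called LFC changed direction under the alternatives run. Among all 345 member LFCs, 55 changed sign under at least 1 of 13 alternatives other than left-out mice, 3 to 15 per alternative, and 0 of these had been under an unadjusted p of 0.05. They include Dyrk1a between CA1 PNs and CA3 PNs in 2N mice on the normal diet (0.05, and -0.07 without the CA1 libraries rich in CA2 markers) and the Rcan2 genotype LFC in CA3 PNs on that diet (-0.30, and 0.05 with the 15-145 library under its Ts label). The counts of members called and the 12 LFCs of Dyrk1a and Rcan1 were followed under alternatives other than left-out mice. Of these values 188 were taken as kept, 9 gained calls and 3 lost them. An LFC was kept when it stayed on its side of the threshold. A count was kept when near its main value, as far as 6 in place of 4, so the 188 include counts that differ. The count called by diet in Ts mice (0) was 1 under library totals, limma-voom, filterByExpr, no filter and the Ts label of the 15-145 library, and 0 to 2 with each mouse left out. That by diet in 2N mice (1) was 0 under DESeq2, 2 under limma-voom and without the CA1 library of mouse 17-21, and 0 to 2 with each mouse left out. The count with an interaction (1) was 2 under limma-voom and no filter, and 1 to 2 with each mouse left out. The count by genotype on the normal diet (8) was 5 to 8 with each mouse left out, the 5 being without mouse 16-490. The count of members whose genotype LFC differed between populations was 2 to 5 with each mouse left out on the normal diet (4), with 2 without mouse 17-157 and 6 without the CA1 libraries rich in CA2 markers, and 1 to 6 on the supplemented diet (4), where limma-voom gave 1 and so did leaving out mouse 15-334 or 17-03. The Rcan1 LFC in CA1 PNs on the normal diet was 0.59 with the CA2 covariate and 0.51 to 0.93 with each mouse left out, and that in DGCs 0.31 to 0.52. The cause of these changes was not tested.

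With the mouse as a block, members differing between populations numbered 16, 16, 17 and 18 and members with a differing genotype LFC 4 and 3. The block ended 2 calls, both differences of the genotype LFC on the supplemented diet, for Nfatc1 between CA1 PNs and DGCs (-2.11) and Nfatc3 between CA3 PNs and DGCs (-0.57), and no other. Depth limits the NFAT genes most, since 3 counts corresponded to a median of 2.71 CPM, above most Nfatc1 values.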
